A study of Homo sapiens with 12 samples.

Results

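H3K27ac, acetylation of lysine 27 of histone H3 and a mark of active promoters and enhancers, was followed across the 2 keratin gene clusters and the epidermal differentiation cluster of MDA-MB-231, a triple-negative human breast cancer cell line with mesenchymal features. The members were all peaks of 9 peak lists that overlapped 1 of 3 genome segments in build hg19. These were chr17:38800000-39800000 with the type I keratins, chr12:52550000-53350000 with the type II keratins and with KRT8 and KRT18 at its upper end, and chr1:151950000-153650000 with the epidermal differentiation cluster and its S100 genes. The segments held 890 of the 659281 peaks on chromosomes 1 to 22 and X, from 88 to 112 per library, and these merged into 128 of 120363 regions.

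All libraries came from native (unfixed) chromatin of cells infected with lentivirus 96 h before harvest, with 0.25 to 0.5 M cells per ChIP. The 3 Control libraries carried a control that the sample labels call EV-control and the series text a control shRNA, the 3 CDK19KD libraries an shRNA against CDK19 and the 3 CDK8KD libraries an shRNA against CDK8. CDK8 and CDK19 are related kinases of the Mediator kinase module. The labels name no shRNA sequence and do not say how many shRNAs were used per kinase or whether replicates were separate infections, so p-values measure only the spread between these libraries, and the knockdowns themselves were not measured here. Over all chromosomes the lists held 62669 to 87530 peaks and covered 262 to 318 Mb. The share of peaks with a deposited −log10 q of at least 5 ran from 17.1% to 43.9%. Read depth is unknown, so a peak missing from a list is not shown to be missing from the cells.

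Keratins are the intermediate filament proteins of epithelia, built as pairs of an acidic type I and a basic type II chain, and each type lies in its own gene cluster. KRT8 and KRT18 are the pair of simple epithelia, KRT5 and KRT14 that of basal keratinocytes, and KRT1 and KRT10 that of differentiating epidermis, while many other members serve hair. The epidermal differentiation cluster codes for proteins of the cornified envelope (involucrin, loricrin, and the SPRR and LCE families), for filaggrin and its relatives, and for S100 calcium-binding proteins, several of which are made far beyond skin.

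An annotation of hg19 was not used here, so no peak was assigned to a single gene, and gene names come only as an order from the RefSeq table of GRCh38.p14. In that order the type I cluster runs from KRT222 to KRT17 with 62 protein-coding genes, 28 keratins and 34 keratin-associated proteins of hair (KRTAP). The type II cluster runs from KRT80, KRT7, KRT86 and KRT81 at the lower end to KRT8 and KRT18, with 27 keratins. The epidermal cluster opens with S100A10 and S100A11 and continues with the filaggrin family (TCHHL1 to CRNN). The LCE genes, IVL, the SPRR genes and LORICRIN follow, and S100A9 to S100A7 and then S100A6 to S100A1 close it, with 63 genes of which 16 are S100, 19 LCE and 11 SPRR.

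The promoters of these genes differ in base composition, and 4 are shown. S100A11 and S100A6 are examples rich in CpG dinucleotides, which few genes of the clusters were, and IVL and KRT10 are examples poor in them. Each is the RefSeq window of 250 bases before to 50 after the gene start in GRCh38.p14, 5′ to 3′ on the gene's strand, and its coordinates cannot be set against the hg19 positions of the peaks. Capitals mark the motifs TATAAA (searched on both strands) and TGANTCA (an AP-1 site, the same on both strands). S100A11 (chr1:152036955-152037254, minus strand) is the second gene of the epidermal cluster and S100A6 (chr1:153535942-153536241, minus strand) belongs to its closing S100 group. IVL (chr1:152908296-152908595, plus strand) codes for involucrin and lies in the middle, and KRT10 (chr17:40822565-40822864, minus strand) is the type I keratin of differentiating epidermis.
S100A11: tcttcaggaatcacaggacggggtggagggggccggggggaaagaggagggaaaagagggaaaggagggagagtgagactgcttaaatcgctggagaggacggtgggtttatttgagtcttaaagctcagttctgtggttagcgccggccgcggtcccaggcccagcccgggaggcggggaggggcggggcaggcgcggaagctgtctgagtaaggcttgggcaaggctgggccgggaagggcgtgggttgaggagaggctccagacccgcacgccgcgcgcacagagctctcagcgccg
S100A6: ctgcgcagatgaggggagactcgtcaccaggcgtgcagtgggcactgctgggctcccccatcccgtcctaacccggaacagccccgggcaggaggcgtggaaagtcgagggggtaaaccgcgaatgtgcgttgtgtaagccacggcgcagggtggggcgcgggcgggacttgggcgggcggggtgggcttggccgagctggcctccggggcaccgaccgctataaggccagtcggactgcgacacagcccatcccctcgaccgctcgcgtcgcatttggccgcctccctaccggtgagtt
IVL: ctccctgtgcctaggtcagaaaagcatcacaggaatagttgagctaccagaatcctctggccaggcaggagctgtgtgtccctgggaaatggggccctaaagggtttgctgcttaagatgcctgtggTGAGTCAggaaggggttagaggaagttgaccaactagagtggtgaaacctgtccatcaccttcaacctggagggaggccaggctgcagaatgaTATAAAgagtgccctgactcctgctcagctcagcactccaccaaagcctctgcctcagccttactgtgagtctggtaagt
KRT10: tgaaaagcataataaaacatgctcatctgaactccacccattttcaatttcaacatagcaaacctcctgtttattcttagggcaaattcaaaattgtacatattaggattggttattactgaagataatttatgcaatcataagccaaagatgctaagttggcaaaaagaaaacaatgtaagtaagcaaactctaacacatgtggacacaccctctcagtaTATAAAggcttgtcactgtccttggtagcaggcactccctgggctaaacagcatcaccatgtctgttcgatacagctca
S100A11 and S100A6 held 22 and 31 CpG dinucleotides and neither motif. IVL held 0 CpG dinucleotides with both motifs, and KRT10 held 1 with TATAAA.

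Of the 152 genes of the 3 clusters 126 matched a promoter window. In the type II cluster only 14 of 27 did, and KRT7, KRT18 and KRT80 were not among them. KRT8 was matched, and its window held 2 CpG dinucleotides and neither motif. In the epidermal cluster 4 of 59 windows held more CpG than the rest, S100A10 with 32, S100A6 with 31, S100A11 with 22 and S100A13 with 19, and the other 55 held 0 to 8. Among these 55 were S100A5, S100A4, S100A3, S100A2, S100A16, S100A14 and S100A1 of the closing group, with 3 to 8. Type I windows held 0 to 11 and type II windows 0 to 8. The median CpG count was 14 over all 27305 promoters and 22 over the 15843 protein-coding ones. TATAAA was present in 29 of 33 KRTAP windows, 14 of 20 type I keratin windows and 8 of 9 SPRR windows, against 12% of all promoters. It was less frequent, though still above that 12%, in type II keratin (6 of 14), LCE (9 of 18) and S100 windows (5 of 16). Windows of the filaggrin family and other epidermal genes held it in 8 of 16. TGANTCA was present in 6 of 9 SPRR windows and 10 of 16 windows of the filaggrin family and other epidermal genes. It was present in 0 of 18 LCE windows and in 7.76% of all promoters. Type I and type II keratin windows held it in 0 of 20 and 0 of 14, KRTAP windows in 4 of 33 and S100 windows in 3 of 16. These are descriptions of letters in a window, and the peaks were not placed on them.

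Acetylation did not spread evenly over the clusters. The mean covered share was 19.1% in the type I cluster, 19.7% in the type II cluster and 12.5% in the epidermal cluster. Among 2755 tiles of 1 Mb with at least 1 peak the median share was 8.51% (quartiles 2.85% and 16%), and the clusters stood at percentiles 82.3, 83.4 and 64.4 of these tiles. In the type II and epidermal clusters a long empty stretch lay between 2 occupied ends, while in the type I cluster peaks alternated with shorter gaps. The lower occupied end of the epidermal cluster was wide. Its 50 kb bins at 150 to 200 kb and 500 to 550 kb from the lower limit had mean cover of 36.5% and 33.1%. No bin of 50 kb out of 20 was empty in all libraries in the type I cluster, against 6 of 16 in the type II and 16 of 34 in the epidermal cluster. The map of peaks by library shows the same ends occupied in all 9 libraries.

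**Figure D1:**
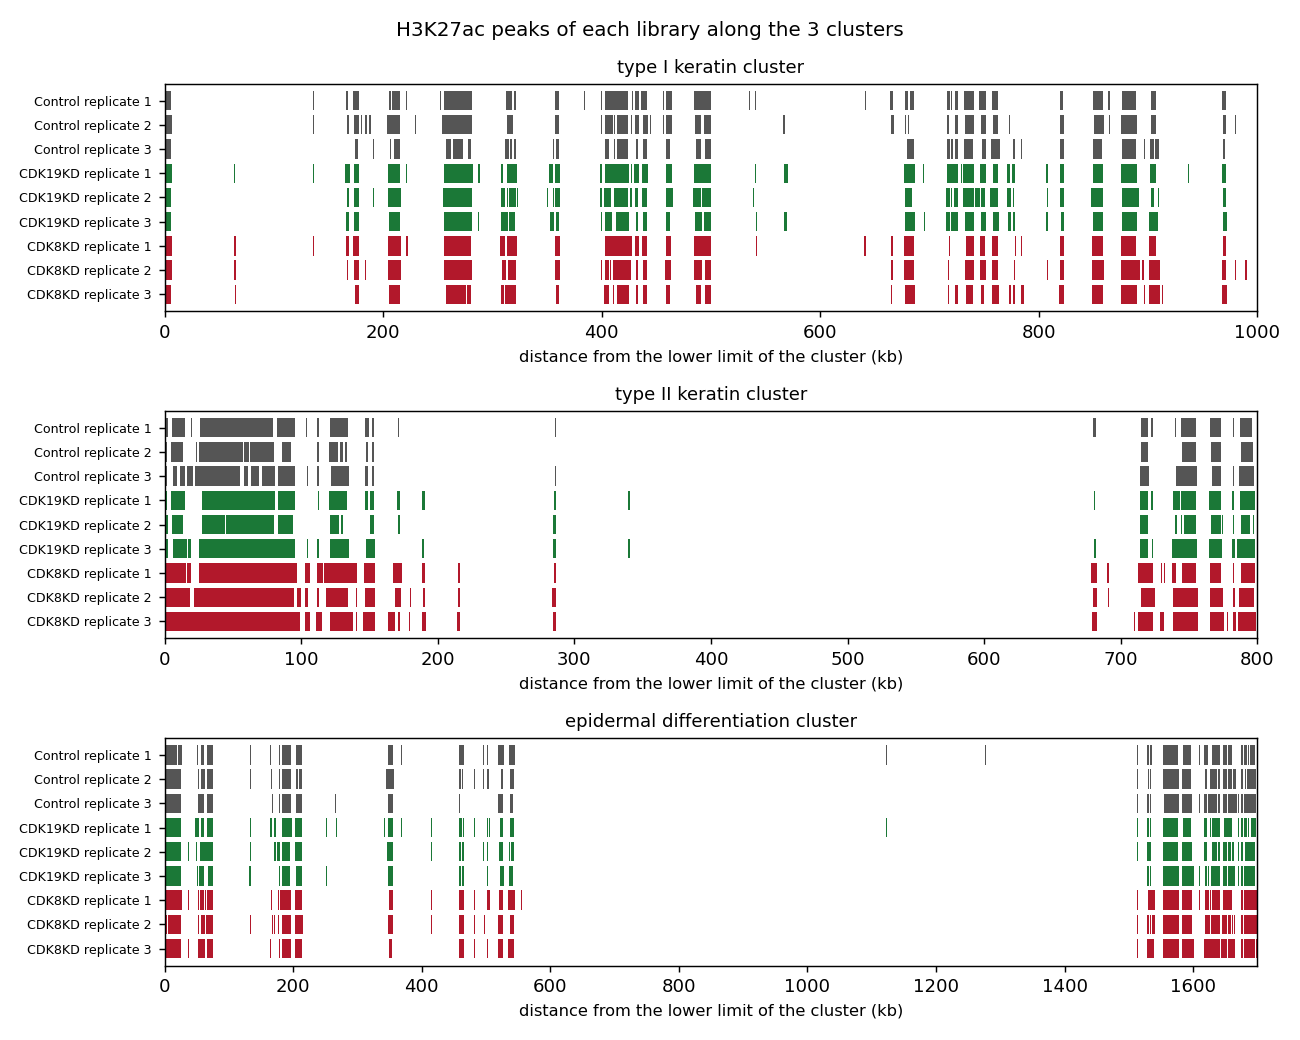
Each row is 1 library and each block 1 H3K27ac peak, plotted by distance in kb from the lower limit of each cluster, with Control in grey, CDK19KD in green and CDK8KD in red. The type II cluster has no peak in any library over 337 kb and the epidermal cluster none over 566 kb, while the longest such stretch of the type I cluster is 70.3 kb.

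In the type II cluster no library had a peak on chr12:52890719-53228035, which is 337 kb or 42.2% of the cluster. In single libraries the longest stretch without a peak was 394, 544 and 428 kb in Control (replicates 1, 2 and 3), 340, 427 and 340 kb in CDK19KD and 392, 340 and 392 kb in CDK8KD. These values overlapped between groups. In the epidermal cluster no library had a peak on chr1:152505626-153072103, 566 kb long.

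Beyond that stretch only 2 weak regions, of 1889 and 646 bp, broke the emptiness of the epidermal cluster up to chr1:153462111. The first was held by Control replicate 1 and CDK19KD replicate 1, with −log10 p of 2.88 and 4.02, and the second by Control replicate 1 alone, with 3.34. The 7 other libraries had a continuous stretch without a peak of 957 to 970 kb. By order the LCE, involucrin, SPRR and loricrin genes of the cornified envelope lie between the 2 groups of S100 genes. Which of them fall in these stretches was not determined.

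The acetylated ends of the epidermal cluster were among the stronger sites of each list. Strength is given as the percentile of a peak in its own list by the authors' −log10 p, since that value cannot be compared between lists. The region chr1:152014796-152025152, near the S100A10 and S100A11 end, had a mean percentile of 98.8 and was a single peak in each of the 9 libraries, with fold enrichments of 5.27 to 8.64. On the same side lay chr1:151997883-152012309 (mean percentile 97.8) and the widest region, chr1:151937477-151976505, 39029 bp (93.9). Farther in, 533 kb from the lower limit, chr1:152483461-152495405 had a mean percentile of 95.7 and was held by all 9 libraries. At the opposite end, by order the side of S100A6 to S100A1, chr1:153532259-153552114 had a mean percentile of 98.1. The bin with the highest cover in the cluster was chr1:153500001-153550000, covered to 73.0%, 74.4% and 79.9% in Control, 74.4%, 77.1% and 83.3% in CDK19KD and 77.9%, 80.1% and 85.3% in CDK8KD. The groups overlapped there. Second in cover was the last bin, chr1:153600001-153650000, with 54.0%, 61.1% and 76.0% in Control, 58.3%, 57.2% and 69.1% in CDK19KD and 65.7%, 62.3% and 68.6% in CDK8KD, again with overlap. The gene order was listed only as far as S100A1. How much of this last bin lies beyond S100A1, over other genes, was not determined.

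The strongest regions of the type II cluster were also at its ends. The widest region of all 3 clusters, chr12:52531159-52649617, spanned 118459 bp from below the lower limit of the cluster, on the side of KRT80 and KRT7, which is a keratin of simple and glandular epithelia. Its mean percentile was 96.0. At the KRT8 and KRT18 end chr12:53314226-53325223 had a mean percentile of 95.7 and fold enrichments of 4.27 to 8.43 in the 9 libraries. The next region in strength, chr12:52666999-52691171, had 91.7.

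In the type I cluster the top regions were spread out. The region chr17:38798865-38806770 (mean percentile 98.2) crosses the lower limit of the cluster, where SMARCE1, a chromatin remodelling gene, is the next gene below KRT222 in the RefSeq order. It was followed by chr17:39530234-39540987 (97.3), chr17:39202151-39228404 (95.2) and the widest, chr17:39054221-39082208, 27988 bp (94.8). The bins with the highest cover were chr17:39200001-39250000 with 56.2%, chr17:39050001-39100000 with 49.6% and chr17:39650001-39700000 with 49.0% as means of the 9 libraries.

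Covered length was then compared between the groups (plot of covered length per library). In the type II cluster all CDK8KD libraries lay above all others. Control libraries covered 140, 116 and 136 kb (replicates 1, 2 and 3), CDK19KD libraries 149, 121 and 163 kb, and CDK8KD libraries 190, 189 and 212 kb. The means were 131 ± 13.1 kb in Control, 144 ± 21.7 kb in CDK19KD and 197 ± 13.2 kb in CDK8KD (SD, n = 3 each). The share of variance between groups was 82.0% (exact two-sided permutation p = 0.0143, over 280 splits). CDK8KD covered 1.51 times the length of Control (log2 ratio 0.60, exact p = 0.1) and CDK19KD 0.732 times that of CDK8KD (log2 ratio −0.45, exact p = 0.1). With 3 libraries against 3 the smallest possible p is 0.1, so no pair could pass 0.05. CDK19KD and Control overlapped, with a log2 ratio of 0.15 (exact p = 0.4).

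CDK8KD lists cover more of many segments, so the same measure was read over the genome. Of 1800 tiles of 1 Mb with a mean share of at least 5%, 9.78% had all CDK8KD libraries above all Control libraries and 5.22% the reverse. All CDK8KD libraries stood above all CDK19KD libraries in 26.9% of tiles and below them in 1.78%. The type II ratio of CDK8KD to Control exceeded that of 98.0% of these tiles, whose median log2 ratio was −0.0034 with 95% between −0.57 and 0.57. When each library was scaled by the total length its list covers, the log2 ratio was 0.56 (3 groups, exact permutation p = 0.0393). CDK8KD still did not overlap Control or CDK19KD, while CDK19KD and Control overlapped. The scaled log2 ratio of CDK19KD to CDK8KD was −0.27. Without CDK8KD replicate 3 the 3-group p was 0.05 (exact permutation) and no longer passed. For peaks whose −log10 q reached 5 the log2 ratio of CDK8KD to Control was 0.89, while the 3 groups had an exact permutation p of 0.125.

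**Figure D2:**
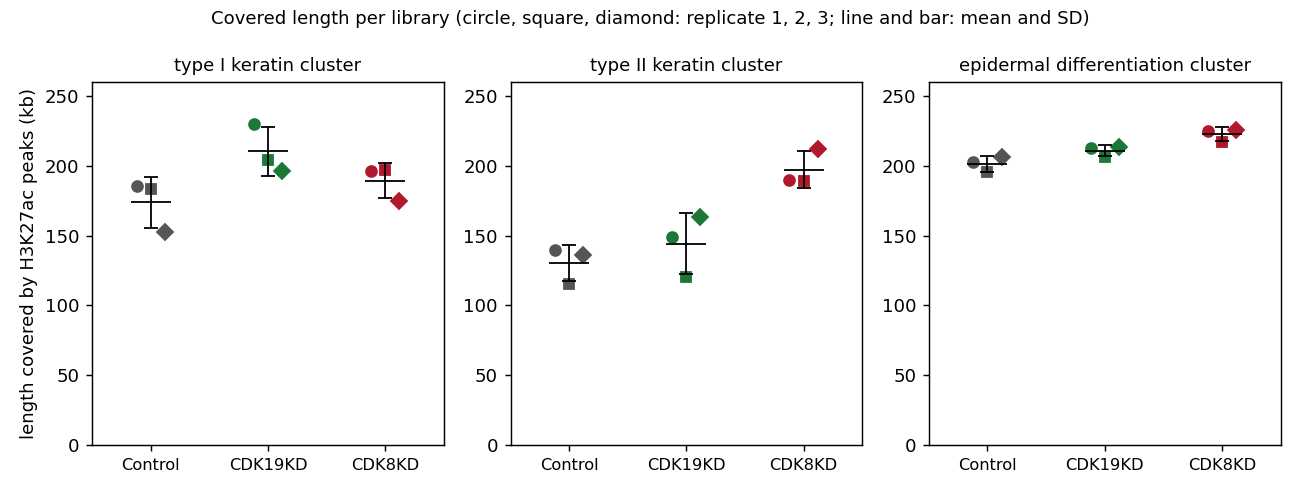
Length covered by H3K27ac peaks in kb (vertical axis, from 0) in each library of Control, CDK19KD and CDK8KD for each cluster, with the mean and SD of 3 libraries. In the type II cluster the CDK8KD libraries, at 189 to 212 kb, sit above the other 6, at 116 to 163 kb.

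The extra length in CDK8KD lay at both ends of the type II cluster. All 6 bins of 50 kb with a mean share of at least 5% had every CDK8KD library above every Control library, against 15.3% of 23588 such bins in the genome. In 5 of these 6 every CDK8KD library also lay above every CDK19KD library, against 20.1% of bins. Neighbouring bins can share a broad peak and are parts of the covered length compared above, so they are not separate tests of it. The bin with the highest cover, chr12:52600001-52650000, had 85.9%, 67.9% and 72.6% in Control, 85.7%, 80.7% and 90.4% in CDK19KD and 93.6%, 95.4% and 98.8% in CDK8KD. Next came chr12:52550001-52600000 with 73.8%, 72.2% and 82.1% in Control, 70.4%, 64.3% and 78.7% in CDK19KD and 86.3%, 95.5% and 100% in CDK8KD. In both CDK8KD stood above the other groups, which overlapped each other. The bin chr12:52650001-52700000, 100 to 150 kb from the lower limit, was covered to 35.3%, 26.2% and 35.2% in Control, 31.9%, 17% and 37.8% in CDK19KD and 71.7%, 50.04% and 61.2% in CDK8KD. CDK8KD was higher there with no overlap, and Control and CDK19KD overlapped. In the next bin, chr12:52700001-52750000, Control had 4.40%, 4.0% and 2.36%, CDK19KD 15.0%, 8.0% and 10.1%, and CDK8KD 23%, 20.9% and 28.2%. Of the 6 bins it was the 1 where all CDK19KD libraries also stood above all Control libraries (6.7% of such bins in the genome).

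The widest region showed how cover filled in. Its 118459 bp were covered over 95736, 83858 and 91781 bp in Control by 6, 8 and 9 peaks, and over 93789, 87146 and 100168 bp in CDK19KD by 4, 6 and 4 peaks. In CDK8KD they were covered over 106223, 114295 and 115512 bp by 4, 3 and 1 peaks. A single peak of 115512 bp thus took the place of several in CDK8KD replicate 3. Over whole lists CDK8KD libraries also had fewer and wider peaks than the same-numbered Control libraries. Lists held 65579, 87530 and 84856 peaks in Control, 65898, 74654 and 69807 in CDK19KD and 62669, 74761 and 73527 in CDK8KD. Median widths were 2769, 2040 and 1969 bp in Control, 2847, 2198 and 2475 bp in CDK19KD and 3163, 2332 and 2424 bp in CDK8KD. The peaks of CDK8KD were not higher in their own lists, since the strongest peak of the cluster stood at percentiles 94.0 to 95.9 in CDK8KD, 95.4 to 99.8 in Control and 97.6 to 99.7 in CDK19KD.

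At the end that the KRT8 and KRT18 genes close, the bin chr12:53250001-53300000 was covered to 28.4%, 19.99% and 31.1% in Control, 36.1%, 25.5% and 37.6% in CDK19KD and 39.8%, 45.6% and 54.8% in CDK8KD. In the last bin, chr12:53300001-53350000, Control had 46.2%, 40.9% and 48.1%, and CDK8KD 48.9%, 56.3% and 64.7%. CDK19KD, at 52.7%, 41.8% and 62.5%, overlapped both there.

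**Figure D3:**
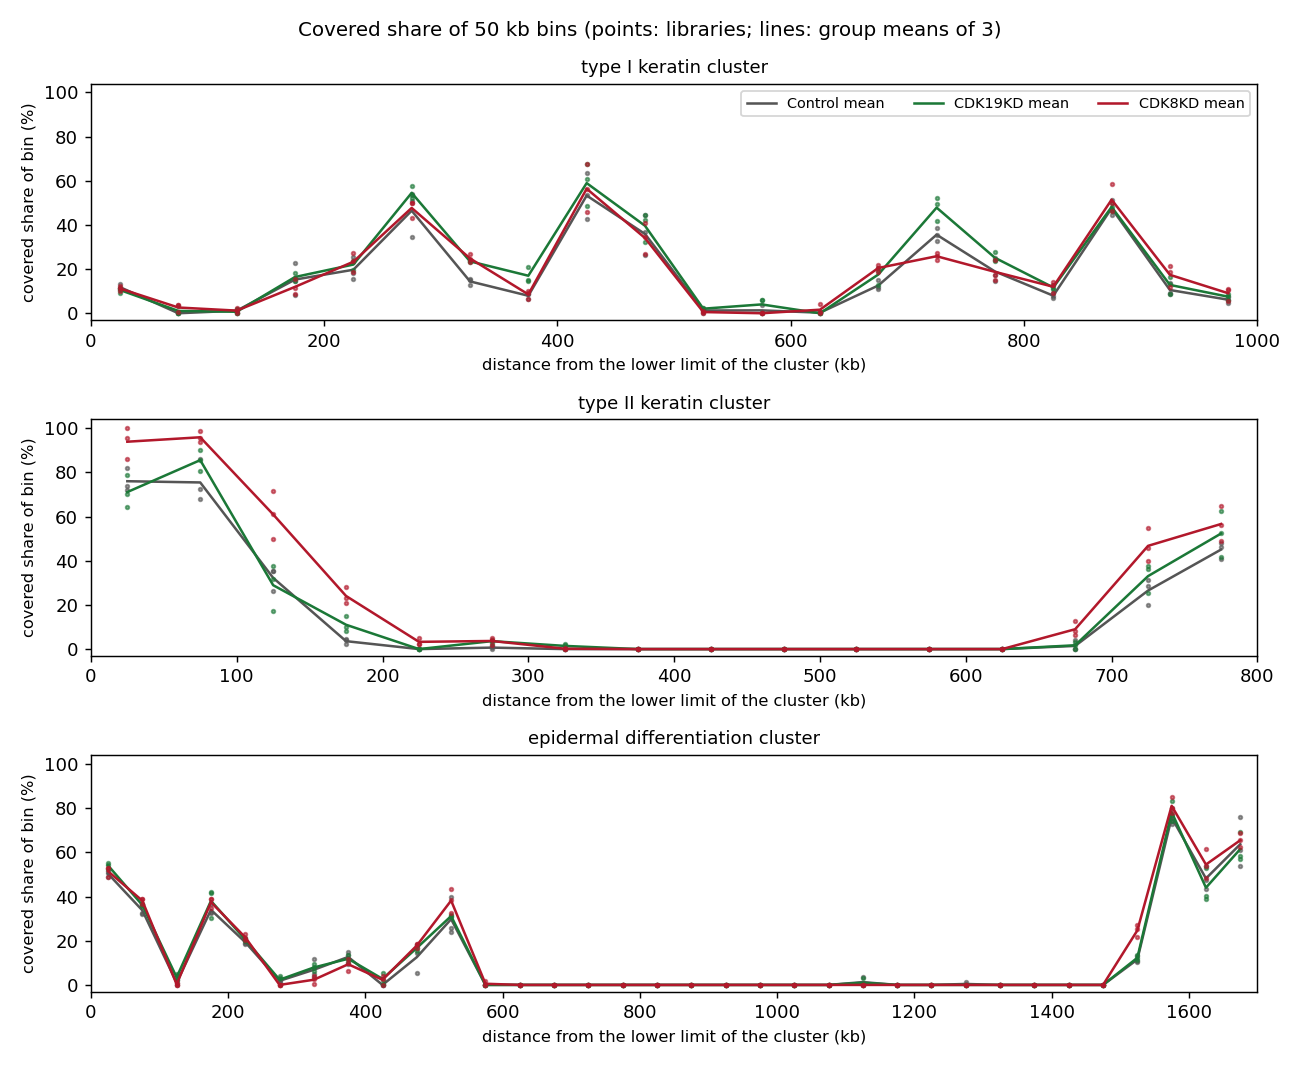
Covered share in percent of each 50 kb bin against distance in kb from the lower limit of each cluster, with points for libraries and lines for the means of 3 libraries per group. CDK8KD runs above Control in the 6 acetylated bins of the type II cluster, and the middle of the type II and epidermal clusters stays at or near 0% in all groups.

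Windows of 10 kb gave the test with adjustment over the genome. Of 78056 windows tested 125 lay in the clusters. For CDK8KD against Control limma called 3 of them higher and 0 lower (Benjamini-Hochberg adjusted p under 0.05), where 0.63% of all windows were called higher and 0.0858% lower. In the type II cluster 29 of 31 windows had a higher mean in CDK8KD and 0 a lower one. The median difference was 16.4 percentage points, against 0.88 over all windows tested. An unadjusted limma p under 0.05 was reached by 20 of the 31, all higher, where 10.5% of all windows were higher and 4.14% lower at that level. Neighbouring windows, here and in the other clusters, can share a peak as well. Between the knockdowns limma called 1 cluster window for CDK19KD over CDK8KD and 3 for the reverse (0.225% and 0.78% of all windows). An unadjusted p under 0.05 (limma) was reached by 10 higher and 19 lower (3.48% and 11.1%). With scaled shares these were 13 and 14 in the clusters and 4675 and 5030 of 77814 windows in the genome, so the surplus of lower windows depended on the scaling. The called windows of the genome then numbered 129 higher and 210 lower, against 176 and 609.

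The window chr12:53270001-53280000, on the KRT8 and KRT18 side, was covered to 17.6%, 0% and 5.79% in Control, 14.2%, 0% and 6.37% in CDK19KD and 43.1%, 56.3% and 47.5% in CDK8KD. CDK8KD was higher than Control by 41.2 ± 6.01 percentage points (SE, limma adjusted p = 0.0389) and CDK19KD was lower than CDK8KD by a difference of −42.1 (limma adjusted p = 0.0334). The window at the lower limit, chr12:52550001-52560000, was fully covered (100%) in the 3 CDK8KD libraries, to 68.2%, 68.7% and 49.8% in Control and to 73.4%, 69.5% and 65.3% in CDK19KD. Its difference was 37.8 ± 5.18 points against Control (SE, limma adjusted p = 0.0339), and −30.6 for CDK19KD against CDK8KD (limma adjusted p = 0.0465).

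The third such window lay in the epidermal cluster, at chr1:153480001-153490000 near the lower edge of its closing acetylated end. It was covered to 43.9%, 35.1% and 23.8% in Control, 37.7%, 36.5% and 36% in CDK19KD and 89.6%, 70.9% and 94.0% in CDK8KD. CDK8KD was higher than Control by 50.6 ± 7.74 points (SE, limma adjusted p = 0.0425), and CDK19KD differed from CDK8KD by −48.1 (limma adjusted p = 0.0416). These calls were near the threshold. Leaving out 1 of the 9 libraries kept the CDK8KD against Control call in 2, 2 and 1 of 9 fits for the windows of the epidermal cluster, the lower limit and the KRT8 and KRT18 side. Adjusted p then ran from 0.0194 to 0.133 (limma). With the replicate number as a block the window at the lower limit passed (limma adjusted p = 0.0474), while those of the epidermal cluster and of the KRT8 and KRT18 side did not (limma adjusted p = 0.0592 and 0.0604). Against CDK19KD the same held under the block, in the same order (limma adjusted p = 0.0494, 0.0573 and 0.0530). With scaled shares 0 of the 3 passed against Control, in the order epidermal, lower limit, KRT8 and KRT18 side (limma adjusted p = 0.0593, 0.109 and 0.0593). For CDK19KD against CDK8KD in that order 1 of the 3 passed with scaled shares (limma adjusted p = 0.0691, 0.303 and 0.0489), and 2, 1 and 3 of 9 fits that left out a library kept the call. The difference of CDK8KD from Control stayed between 31.5 and 57.5 points in all these fits.

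In the type I cluster the group that stood above Control was CDK19KD. Control libraries covered 186, 184 and 153 kb, CDK19KD libraries 230, 205 and 197 kb, and CDK8KD libraries 196, 197 and 175 kb. The means were 174 ± 18.4 kb in Control, 211 ± 17.5 kb in CDK19KD and 189 ± 12.6 kb in CDK8KD (SD, n = 3 each). The share of variance between groups was 55.6%, which did not pass 0.05 (exact permutation p = 0.0536). It did when same-numbered libraries were permuted among themselves (exact permutation p = 0.0278, the lowest that 36 arrangements allow) and with limits widened by 50 kb (72.4%, exact permutation p = 0.00357). It did not with limits drawn in by 50 kb (exact permutation p = 0.0679), with scaled lengths (exact permutation p = 0.0643, and 0.0556 with the block), with the 20000 strongest peaks (49.0%, exact permutation p = 0.139) or with peaks whose −log10 q reached 5 (30.5%, exact permutation p = 0.364). CDK19KD covered 1.21 times the length of Control with no overlap (log2 ratio 0.28, exact p = 0.1). CDK8KD overlapped with both, with log2 ratios of 0.12 to Control (exact p = 0.3) and 0.15 for CDK19KD over CDK8KD (exact p = 0.2).

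The rest of the genome was read in the same way. Over the 1800 tiles of 1 Mb the median log2 ratio of CDK19KD to Control was −0.16, and in 1.06% of them all CDK19KD libraries stood above all Control libraries, while in 10.8% they all stood below. The type I ratio exceeded that of 98.3% of the tiles, and the type II ratio of CDK19KD to Control that of 94.1%. The direction over the genome turned with the scaling. Over all windows of 10 kb the median difference of CDK19KD from Control was −2.26 percentage points as deposited and 1.06 with scaled shares. Windows with an unadjusted p under 0.05 (limma) numbered 3419 higher and 4323 lower as deposited, and 5206 higher and 2995 lower with scaled shares. Scaled by list length, the log2 ratio of CDK19KD was 0.41 to Control and 0.32 to CDK8KD, without overlap in either (exact p = 0.1 each). The comparison of clusters with tiles shows both knockdowns against Control. Both use the same Control libraries.

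**Figure D4:**
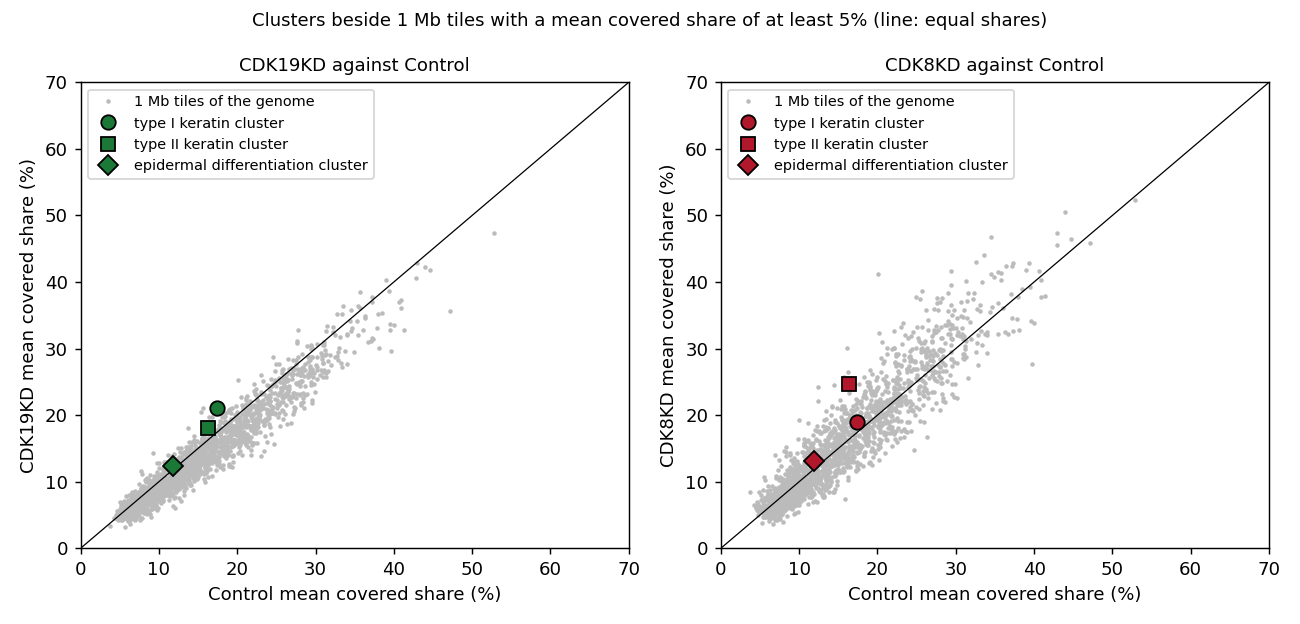
Mean covered share in percent of CDK19KD (left) and CDK8KD (right) against that of Control, with grey points for 1800 tiles of 1 Mb, large symbols for the 3 clusters and a line of equal shares. The type I and type II ratios of CDK19KD to Control exceed those of 98.3% and 94.1% of the 1800 tiles. The type II ratio of CDK8KD to Control exceeds that of 98.0%. Tiles were not matched for cover.

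Within the type I cluster 40 of 50 tested windows of 10 kb had a higher mean in CDK19KD than in Control. Their median difference was 6.06 percentage points, against −2.26 over all windows. Limma called 0 of them, and 0 of the 125 windows of all 3 clusters, at an adjusted p under 0.05, where 0.0551% of all windows were called higher and 0.0231% lower. With an unadjusted p under 0.05 (limma) 8 of the 50 were higher and 0 lower, where 4.38% and 5.54% of all windows were. Of 15 bins of 50 kb with a mean share of at least 5%, 4 had every CDK19KD library above every Control library, against 6.7% of bins in the genome, and 0 had the reverse (9.1%). In 3 of the 15 all CDK19KD libraries stood above all CDK8KD libraries (5.24% of bins).

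At chr17:39500001-39550000 the knockdowns lay on opposite sides of Control. This bin was covered to 38.6%, 32.7% and 35.4% in Control, 52.3%, 49.6% and 41.6% in CDK19KD and 24.0%, 26.1% and 27.3% in CDK8KD. No 2 groups overlapped. The 3 clusters had 33 bins with a mean share of at least 5%. Among these it was the 1 in which all Control libraries stood above all CDK8KD libraries. In the genome 5.61% of such bins did, and 1 of 33 is not above that share. Inside the bin the window chr17:39510001-39520000 was covered to 28.5%, 23.2% and 27% in Control, 41.0%, 34.0% and 41.1% in CDK19KD and 4.98%, 12.4% and 14.2% in CDK8KD. CDK19KD was higher than CDK8KD by 28.2 ± 3.85 points (SE, limma adjusted p = 0.0299), the 1 window of the clusters called in that direction (0.225% of all windows). The call held with scaled shares (limma adjusted p = 0.0438) and with the replicate number as a block (limma adjusted p = 0.0467), and in 3 of 9 fits that left out a library. The strong region chr17:39530234-39540987 lies in the same bin and was held by all 9 libraries.

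In the epidermal cluster the groups differed little in size. Control libraries covered 203, 195 and 206 kb, CDK19KD libraries 213, 206 and 214 kb, and CDK8KD libraries 225, 217 and 226 kb. The means were 202 ± 5.58 kb, 211 ± 4.09 kb and 223 ± 4.97 kb (SD, n = 3 each), and no 2 groups overlapped. CDK19KD and Control were barely apart, with CDK19KD replicate 2 at 206.385 kb and Control replicate 3 at 206.158 kb. The share of variance between groups was 82.2% (exact permutation p = 0.00357, the lowest that 280 splits allow). CDK8KD exceeded Control by a ratio of 1.1 (log2 ratio 0.14, exact p = 0.1), a value above that of 69.9% of tiles, and CDK19KD by 1.05 (log2 ratio 0.067, exact p = 0.1), above that of 88.6%. Scaled by list length the 3 groups had an exact permutation p of 0.0786, and CDK19KD then lay above CDK8KD (log2 ratio 0.098). When only the 20000 strongest peaks per list were kept, the share between groups was 1.06% (exact permutation p = 0.957).

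In the epidermal cluster 12 bins had a mean share of at least 5%. Every CDK8KD library stood above every Control library in 1 of them, less than the genome share of 15.3%. It was chr1:153450001-153500000, the bin of the called window, with 13.2%, 10.5% and 10.8% in Control, 13.5%, 11.3% and 12% in CDK19KD and 25.1%, 21.8% and 27.1% in CDK8KD. At the S100A10 and S100A11 end the first bin, chr1:151950001-152000000, ran only from 48.9% to 55.4% over the 9 libraries. It was the 1 of the 12 bins where every CDK19KD library (54.3%, 55.4% and 52.6%) lay above every Control library (50.6%, 49.1% and 51.4%). That is near the share in the genome, 6.7% of such bins.

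Peak numbers were also counted. Type I lists held 42 to 47 peaks in Control, 38 to 45 in CDK19KD and 33 to 40 in CDK8KD. Type II lists held 18 to 21, 18 to 25 and 23 to 24, and epidermal lists 32 to 38, 37 to 43 and 28 to 38, in the same order of groups. All 9 libraries held 48 of the 128 merged regions (37.5%), and a single library 30 (23.4%), where 28.3% and 38.5% of all regions in the genome were so held. By cluster all 9 libraries held 21 of 63 type I regions, 7 of 23 type II regions and 20 of 42 epidermal regions.

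Few regions separated groups by presence. Of 14 regions held by exactly 3 of the 6 CDK8KD and Control libraries, 4 were held by all of CDK8KD and none of Control, and 1 by all of Control and none of CDK8KD (9.63% and 6.2% of such regions in the genome). The type II cluster held 3 of the 4. They were chr12:52738283-52741452, which all 3 CDK19KD libraries held too, and chr12:52763700-52766206 and chr12:53278976-53282082, which no CDK19KD library held. The second had −log10 p of 3.45, 3.44 and 3.49 in CDK8KD and the third 2.48, 2.85 and 5.77. The fourth was chr17:38863223-38865217, also held by CDK19KD replicate 1. The 1 region held by Control was chr1:152215857-152217643 in the epidermal cluster, with −log10 p of 6.60, 4.10 and 4.18 in Control, 3.31 and 3.66 in CDK19KD replicates 1 and 3, and no peak in CDK8KD.

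Of 9 regions held by exactly 3 of the 6 CDK19KD and Control libraries, 4 were held by all of CDK19KD and none of Control, and 0 the other way (10.3% and 7.25% of such regions in the genome). Besides the type II region above they were chr17:39494102-39495846, chr1:152120700-152122692 and chr1:152364289-152366676, with mean percentiles of 22, 25 and 31.3. The epidermal pair was also held by 1 and 2 CDK8KD libraries. Between the knockdowns, of 10 regions held by exactly 3 of the 6 libraries, 1 was held by all of CDK19KD and none of CDK8KD, the same chr17:39494102-39495846, and 3 by all of CDK8KD and none of CDK19KD (15.9% and 15% in the genome). Of these 3, 2 are the type II regions named above without a CDK19KD peak, and the other is chr17:39464219-39467346, which Control replicates 1 and 2 held too. These separating regions were weak. Among peaks whose −log10 q reached 5 each was held by 0 libraries except chr1:152215857-152217643, held by 1.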

How the data were processed

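H3K27ac ChIP-seq peak lists of 9 libraries (3 each of Control, CDK19KD and CDK8KD, grouped by the sample titles) were used. The 3 Input samples were not analysed here. Per the submitters' processing notes the authors used MACS2 and deepTools with build hg19. Versions, settings, aligner, control library and depth are not given in the sources used here. Each list was called on 1 library. The deposited columns are a fold enrichment (a linear ratio), the −log10 of a p-value, the −log10 of a q-value, and a score that was not used. For ranks and filters they were used only inside the list they belong to. Fold enrichments and −log10 p printed for several libraries describe each list and were not tested between lists.

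Chromosomes 1 to 22 and X were kept, and coordinates count from 1. Covered length is the union of peaks within a cluster. Peaks that overlap or touch across the 9 lists form a region, which a library holds if at least 1 bp overlaps. Three-group tests permuted the 9 libraries (280 splits, smallest p 0.00357) and pair tests 6 libraries (10 splits, smallest p 0.1), two-sided and exact. Covered shares of 10 kb windows with a mean of at least 5% were fitted with limma 3.58.1 (R 4.3.3, eBayes with a trend) on all 9 libraries, with Benjamini-Hochberg adjustment over all windows. The scripts were tested on simulated data. The 3 clusters were tested as single values with no adjustment over them.

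Named regions are, in each cluster, the 3 held by all 9 libraries with the highest mean percentile, the widest, and every group-exclusive one. The region chr1:152483461-152495405 was added after its values were seen. Named windows are all those called, and named bins are the 3 of highest mean cover in each cluster. Other bins were chosen after their values were seen. Members and lists were chosen with earlier results of these data known. After group means were removed, covered shares of same-numbered libraries correlated at 0.138 to 0.611 in all 9 pairs, above 0.1. The main tests did not use this pairing. The replicate numbers in the titles entered as a block only in the alternatives, where the smallest possible p of a pair of groups is 0.25. Promoter sequences and gene order are RefSeq's (GRCh38.p14), and no coordinate was converted. Alternatives are given in the closing section.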

Additional observations from a re-analysis of the deposited data

How the results depend on the processing

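Of 444 alternative values 327 belonged to the 27 main results, and 255 of these kept their side of the threshold or stayed within 1.5 times the count. The main results include the pair tests of covered length, whose smallest possible p of 0.1 lies above the threshold. Values of these pair tests could leave the 255 only by a change of sign. The 255 therefore does not measure how stable the pair results are. No cause of the changes among the alternative values was tested. With a −log10 q of at least 5, and so with fewer peaks, groups held 48.1% of the variance in the type II cluster (exact permutation p = 0.125), 17.9% in the epidermal cluster (exact permutation p = 0.529) and 30.5% in the type I cluster (exact permutation p = 0.364). The windows called were then 1 for CDK8KD over Control, 0 for CDK19KD over CDK8KD and 1 for the reverse. No region (0) stayed group-exclusive for CDK19KD or CDK8KD over Control, Control over CDK8KD, or either knockdown over the other. All 9 libraries then held 8, 4 and 10 regions (type I, type II, epidermal). The 20000 strongest peaks gave the same 8, 4 and 10. With them groups held 1.06% of the variance in the epidermal cluster, and the log2 ratio of CDK19KD to CDK8KD in the type I cluster changed sign, to −0.0033 (exact p = 1). They also gave 1 window lower in CDK8KD than in Control, 0 regions exclusive for either knockdown over Control, 2 for Control over CDK8KD, 2 for CDK19KD over CDK8KD and 0 for the reverse. Scaled shares gave 54.5% for the epidermal cluster and changed the sign of its log2 ratio of CDK19KD to CDK8KD, to 0.098. They called 0 windows for CDK8KD over Control, 2 for CDK19KD over CDK8KD and 1 for the reverse. Windows of 5 kb gave 2 higher in CDK19KD than in CDK8KD, and no minimum share gave 0. With 50% of a region covered, all 9 libraries held 13, 4 and 10 regions, and 0 were exclusive for Control over CDK8KD and 2 for CDK19KD over CDK8KD. Limits widened by 50 kb gave 72.4% for the type I cluster.

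With the replicate block (permutation within numbers) the type I cluster, at 55.6% of the variance, passed the threshold (exact p = 0.0278), and no other call of a cluster changed side, while the counts of windows stayed within 1.5 times (the windows that lost their call are given with their results). Leaving out 1 library gave 46.6% to 63.1% of the variance for the type I cluster, which passed without CDK19KD replicate 3 or CDK8KD replicate 3 (exact permutation p = 0.0464 and 0.0429), and 77.3% to 89.5% for the type II cluster. The type II cluster did not pass without CDK8KD replicate 3 (exact permutation p = 0.05). Windows called for CDK8KD over Control then numbered 0 to 4, with 4 without Control replicate 1, 1 without Control replicate 3 or CDK8KD replicate 2, and 0 without any other library. For CDK19KD over CDK8KD they numbered 0 to 1, with 1 without a Control library and 0 without a knockdown library. For the reverse they numbered 0 to 3, with 3 without Control replicate 3, 1 without Control replicate 1 or 2 or CDK8KD replicate 1 or 2, and 0 without any other library. Exclusive regions numbered 4 to 7 for CDK19KD over Control, 0 to 2 for Control over CDK19KD, 1 to 2 for Control over CDK8KD and 1 to 5 for CDK19KD over CDK8KD. The count for CDK19KD over Control was 7 without CDK19KD replicate 2. That for Control over CDK19KD was 2 without Control replicate 3, and 1 without Control replicate 1 or CDK19KD replicate 3. That for Control over CDK8KD was 2 without Control replicate 3. That for CDK19KD over CDK8KD was 5 without CDK19KD replicate 2, 4 without CDK8KD replicate 2, 3 without CDK8KD replicate 3 and 2 without CDK19KD replicate 3. Since read depth is unknown, an absent peak is not shown to be absent acetylation.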
